A study of Mus musculus with 16 samples.

Results

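Transcripts on the 3 arrays labelled WAT (white adipose tissue) were compared with those on the 2 arrays labelled liver, all from female C57BL/6 mice exposed to cold. The mice had been housed individually at 22°C for 48 h and then at 8°C for 24 h, and each array held the RNA of 1 animal by the methods, with no pooling. Liver, WAT and BAT were sampled from every animal, so arrays of different labels may come from the same mouse. These 5 arrays are part of a series of 16 Illumina MouseWG-6 arrays, which also holds BAT (brown adipose tissue) from the cold mice (3 arrays) and the same tissues from mice kept at 22°C for 72 h (3 of BAT, 3 labelled WAT, 2 labelled liver). No mutation, transgene or drug was involved. A feature of the array (1 probe) was included when its detection score, a measure of signal over the array's negative control probes, was at least 0.95 on 2 or more of the 5 arrays. That gave 17392 of 39730 tested features, of which 12107 carried the name of a gene, for 9408 genes. A gene is represented by its brightest feature.

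Hepatocytes make most of the proteins of blood plasma, turn ammonia into urea, and convert cholesterol to bile acids, with a set of enzymes and transporters that few other cells carry. Adipocytes store triglyceride in a large droplet coated with perilipins and CIDE proteins, release fatty acids through lipases under adrenergic control, and secrete the hormones leptin and adiponectin. Brown and beige adipocytes in addition burn fatty acids for heat through the uncoupling protein of their mitochondria, a programme that cold switches on.

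The defining markers did not follow the labels. Hpx, which encodes the plasma protein hemopexin of hepatocytes, had signals of 16934, 16172 and 11069 where labelled WAT, against 131 and 13.0 where labelled liver. Adipoq, which encodes adiponectin, had 32.4, 16.6 and 27.5 where labelled WAT, and 18483 and 8258 where labelled liver. Lep, which encodes leptin, was not detected on any array labelled WAT (-1.8, 0.0 and -7.0) and had 9632 and 6669 where labelled liver. The arrays labelled WAT thus carried the hepatocyte marker and lacked or nearly lacked both adipocyte markers, and the groups did not overlap. Arrays keep the names of their labels here, and each direction holds for the arrays as labelled. The features named Alb and Fabp4, for albumin and the adipocyte fatty acid binding protein, lay near background on all 5 arrays, from -8.7 to 15.9, and were not used for this check. The Fabp4 feature did reach the detection score on both arrays labelled liver (12.9 and 15.9) and on none labelled WAT.

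The lists of genes used below were drawn up from knowledge of the tissues, with earlier results of these data known, and overlap in some genes. Some arrays stood apart from others of the same label. The third labelled WAT array carried genes of the exocrine pancreas, with a median log2 signal of 13.57 over 5 such genes against 4.89 and 4.53 on the first and second. The second labelled liver array carried genes of skeletal muscle (median 10.75 over 8 genes, against 5.16 on the first) and of lymphocytes (9.70 against 5.00). The muscle median also varied where labelled WAT, with 7.24, 4.53 and 6.68. The first labelled liver array held more of the 10 hepatocyte markers, with 7.03 against 4.79. Where a call of a gene named below was gained or lost without 1 array, the value without it is given beside it for the main examples. Between 11915 and 13672 features were detected per array labelled WAT, against 17001 and 17384 for liver. Over the members, log2 signals of 2 arrays of 1 label correlated at 0.943 to 0.972 (Pearson's r across features, which are not independent replicates), and those of different labels at 0.691 to 0.72.

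**Figure D1:**
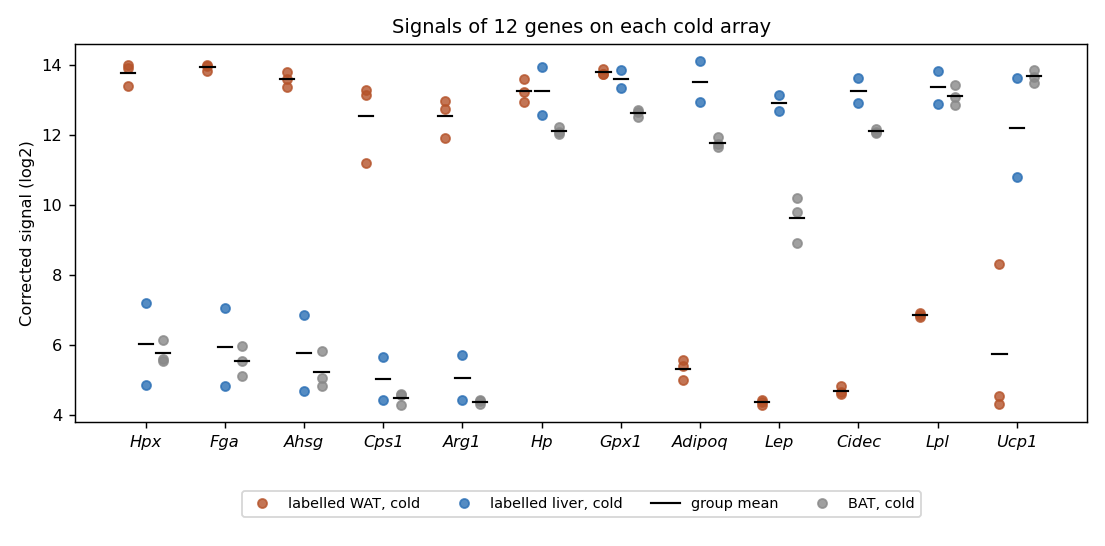
Corrected signals (log2, vertical axis) of 12 genes on each array of the cold mice, with points for arrays and bars for group means of 3 labelled WAT, 2 labelled liver and 3 BAT arrays. Hpx to Arg1 are high where labelled WAT, Hp and Gpx1 are high in every group, and Adipoq to Ucp1 are low where labelled WAT.

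Of the 17392 members, 3014 (17.3%) were higher and 4184 (24.1%) lower where labelled WAT, by limma with Benjamini-Hochberg adjustment over all tested features at 0.05. Among all tested features 7.86% were called higher and 11.2% lower, and 19.1% either way. The median log2 difference (labelled WAT minus labelled liver) was -0.09 over the members. At least a 10-fold difference was fitted for 470 called members that were higher and 280 that were lower, and a 100-fold difference for 72 and 18. A further 8504 members (48.9%) were alike in the sense that the whole 95% interval of their difference lay within 2-fold either way. Of these, 1152 were also called, so small differences could pass. Neither call could be made for 2842. The p-values, standard errors and intervals come from a fit of group means over all 16 arrays of the series. Their spread is pooled over every group, including BAT and the room temperature arrays, and is not that of these 5 arrays alone. A fit of the 5 arrays alone called 4301 members. The p-values measure the spread between the samples of this series only. In RNA of whole tissue fewer cells of a type cannot be told apart from less RNA per cell.

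Detection was counted without a test. All 5 arrays detected 9368 members (53.9%). By the rule for inclusion, a member detected on no array labelled WAT had to be detected on every array labelled liver. A member detected on no array labelled liver was included through the arrays labelled WAT alone. The shares that follow are therefore set in part by this filter. They are not shares of all tested features. No array labelled WAT detected 2864 (16.5%), and no array labelled liver detected 737 (4.24%). For such genes the fold is a lower bound, taken against the lowest detected signal of each array where no array of a group detected the gene, and is written as "at least".

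**Figure D2:**
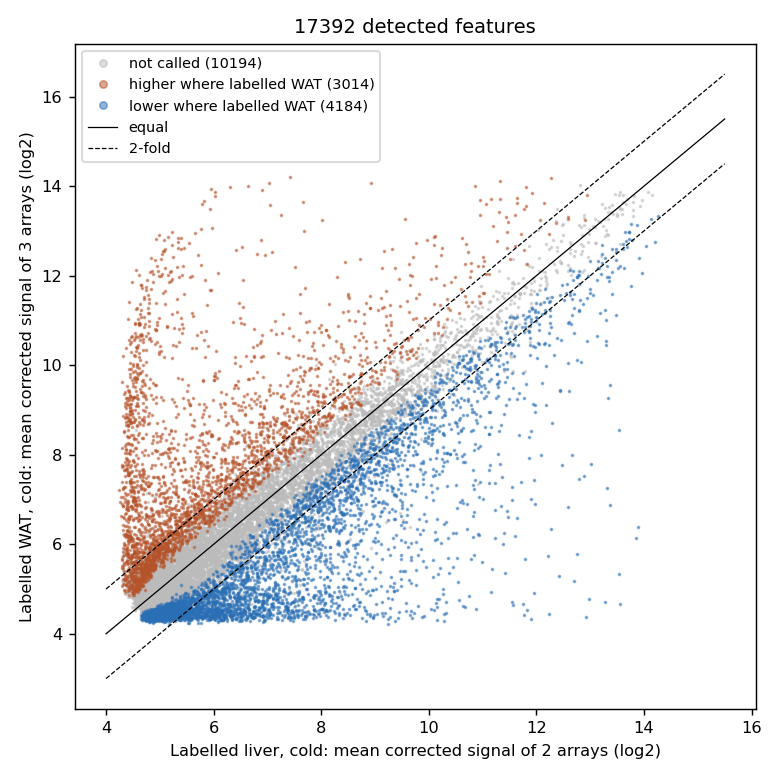
Mean corrected signal (log2) of each of 17392 members on the 3 arrays labelled WAT (vertical axis) against that on the 2 labelled liver (horizontal axis), coloured by the limma call. The 3014 higher and 4184 lower members spread along both axes, and the dashed lines mark a 2-fold difference either way.

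The 15 genes that were highest where labelled WAT, among those that passed and whose arrays did not overlap, were Fga, Hpd, Cyp2a5, Ahsg, Hpx, Urah, Apom, Cyp2d10, Mat1a, Itih4, Uox, Serpinf2, Cps1, Glyat and Arg1. Fga encodes a chain of fibrinogen, the clotting protein of plasma. Its signals were 17816, 15746 and 15041 where labelled WAT and 118 and 12.6 where labelled liver. The log2 difference was 7.98 ± 0.50 (SE, limma adjusted p = 2.05e-07), or 253-fold. Each SE is for means of 3 and 2 arrays, with the spread pooled over all 16 arrays. Hpd encodes the dioxygenase that breaks down tyrosine. Its signals were 7948, 4221 and 13094 against 22.6 and 8.9, a difference of 7.92 ± 0.36 (limma adjusted p = 1.7e-08). Ahsg encodes fetuin-A, a carrier of mineral in plasma, with 12271, 11378 and 14937 against 101 and 8.9 (7.82 ± 0.53, limma adjusted p = 3.81e-07). Mat1a, the hepatocyte form of methionine adenosyltransferase, had 17569, 14935 and 17659 against 202 and 11.9 (7.68 ± 0.64). In each of these the first labelled liver array lay above the second. Without the second labelled liver array the 15 differences ran from 6.21 to 7.65. Without the first they rest on the second alone, where several of these genes lay at background, so no size is given. All 15 passed limma either way.

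The 15 genes that were lowest were Sncg, Cidec, Lep, Adipoq, Aoc3, Retnla, Rgcc, Cav1, Plin4, Hoxc8, Adig, Tmem45b, Slc1a5, Emp1 and Ifi27l2a. Sncg encodes gamma-synuclein, a protein of neurons that adipocytes also make in quantity. Its signals were 5.7, 9.0 and 9.0 where labelled WAT, all undetected, and 19874 and 8139 where labelled liver, so that it was at least 389-fold lower (log2 difference -8.88 ± 0.29, limma adjusted p = 1.5e-09). Cidec encodes the protein that fuses small lipid droplets into the single large one of white adipocytes. It had 12.2, 5.9 and 7.9 against 12626 and 7852, and was at least 322-fold lower (-8.58 ± 0.32). Lep was at least 253-fold lower (-8.56 ± 0.38, limma adjusted p = 1.32e-08) and Adipoq 293-fold (-8.20 ± 0.41, limma adjusted p = 3.04e-08). Hoxc8, a homeobox gene of position along the trunk, had -3.7, -3.3 and 4.9 against 4693 and 2510, at least 113-fold. A second feature named Hoxc8 passed in the other direction, so that gene is uncertain. Plin4, which coats lipid droplets, was detected on every array, with 81.8, 44.2 and 83.3 against 13811 and 14833. Tmem45b passed with a wide error (-7.14 ± 1.66, limma adjusted p = 0.0082), and without the second labelled liver array it did not (-6.83, limma adjusted p = 0.0598). The other 14 passed with any of the 5 arrays left out.

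Promoters of 3 genes chosen as examples, a plasma protein, a bile acid enzyme and an adipocyte hormone, are shown with motifs that were found in them. Sequences are from RefSeq (mouse build GRCm38.p6), each 300 bases from 250 before the start of transcription to 50 after it, in the direction of the gene. Capitals mark matches to a hepatocyte factor HNF1 pattern GTTAATNAT and a C/EBP pattern TTGCNNAA in Fga (chr3:83025903-83026202, plus strand), to an HNF4 pattern CAAAGTCCA and a TATA box TATAAA in Cyp8b1 (chr9:121916256-121916555, minus strand), and to the C/EBP pattern in Lep (chr6:29059971-29060270, plus strand).
Fga: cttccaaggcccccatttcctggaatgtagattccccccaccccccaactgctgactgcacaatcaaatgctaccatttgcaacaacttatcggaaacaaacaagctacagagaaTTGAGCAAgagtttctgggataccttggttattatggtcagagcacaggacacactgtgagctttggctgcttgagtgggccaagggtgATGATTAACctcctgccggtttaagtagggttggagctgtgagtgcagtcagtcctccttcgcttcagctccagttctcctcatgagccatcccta
Cyp8b1: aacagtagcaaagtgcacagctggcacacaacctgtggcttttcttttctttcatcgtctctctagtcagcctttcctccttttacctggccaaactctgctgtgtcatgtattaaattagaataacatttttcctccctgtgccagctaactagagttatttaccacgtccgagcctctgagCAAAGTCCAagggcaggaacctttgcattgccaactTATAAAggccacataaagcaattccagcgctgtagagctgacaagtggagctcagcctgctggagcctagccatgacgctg
Lep: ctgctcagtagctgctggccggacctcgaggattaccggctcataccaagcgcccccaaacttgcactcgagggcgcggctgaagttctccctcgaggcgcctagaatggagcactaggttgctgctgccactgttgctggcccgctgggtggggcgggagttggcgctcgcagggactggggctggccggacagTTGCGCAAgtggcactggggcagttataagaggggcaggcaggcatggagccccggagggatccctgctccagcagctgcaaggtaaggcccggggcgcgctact

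The Fga match to HNF1 was on the opposite strand, starting 46 bases before the transcription start, and the Cyp8b1 matches began 67 (HNF4) and 31 (TATA box) bases before it. The Lep match began 55 bases before the start and reads the same on both strands. Both strands were searched, and a further pattern, AGGNCAAAG, for the DR1 element of PPAR and RXR, can lie over the HNF4 pattern at the letters CAAAG. The HNF1 pattern was found in 1.88% of 1489 promoters of genes that were higher where labelled WAT, 0.248% of 2019 of genes that were lower, 0.522% of 7661 of all member genes and 0.836% of all 27025 mouse promoters. The HNF4 pattern was in 0.806%, 0.545%, 0.470% and 0.477% of these groups, the C/EBP pattern in 10.6%, 8.92%, 8.98% and 10.8%, the DR1 pattern in 2.55%, 1.98%, 1.79% and 2.01%, and the TATA box in 10.1%, 8.87%, 8.30% and 14.2%. Among the 150 promoters of genes higher by over 32-fold, a limit set after the values were seen, the shares were 5.33% (HNF1), 4.00% (HNF4), 21.3% (C/EBP), 4.00% (DR1) and 24.0% (TATA box). Among the 97 of genes lower by over 16-fold, none held the HNF1 pattern, and the C/EBP and TATA patterns were each in 11.3%. These shares are descriptions of letters and were not tested.

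Genes of secreted plasma proteins were mostly higher where labelled WAT. The counts of this and the later lists are to be set beside the 17.3% higher and 24.1% lower of all members. Of 18 plasma proteins and carriers measured 15 were higher and none lower, with a median log2 difference of 3.82, and of 17 coagulation and fibrinolysis genes all were higher (median 6.01). All 14 genes of apolipoproteins and lipoprotein assembly were higher (median 6.35). Apoc3, an inhibitor of triglyceride clearance, had signals of 16866, 16203 and 18982 against 231 and 24.6 (7.38 ± 0.57, limma adjusted p = 1.19e-06). Apoe was the least different of them at 1.47 ± 0.24, with 4630 and 4385 on the arrays labelled liver. Apoa2, a main protein of high density lipoprotein, differed between the labelled liver arrays themselves, with 2128 and 95.5. Its log2 difference of 5.14 was 7.28 without the first and 3.00 without the second, and it passed limma in both cases (adjusted p = 5.42e-05 and 0.024).

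Not every plasma protein gene set the groups apart. Hp, which encodes the hemoglobin carrier haptoglobin, had 9838, 7944 and 12432 where labelled WAT and 14552 and 6234 where labelled liver, and 4470 as the mean of the cold BAT arrays. The difference was 0.01 with a 95% interval from -0.65 to 0.67, so by this interval the groups were alike within 2-fold. Orm1, which encodes an acute phase carrier protein, was alike too, with 9364, 9950 and 8292 against 11111 and 4789 (0.35, interval -0.22 to 0.92). Both calls turned on the labelled liver arrays. Without the first, Hp was at 0.68 (limma adjusted p = 0.0729) and Orm1 passed as higher (0.93, limma adjusted p = 0.00721). Without the second, they were at -0.67 and -0.22 and did not pass, and with the third labelled WAT array left out as well Hp passed as lower (-0.83, limma adjusted p = 0.0148). Haptoglobin and Orm1 are both known as products of adipocytes as well as of hepatocytes. Serpina1b, for an inhibitor of elastase, was 3.76-fold higher but had 5986 and 4008 where labelled liver. Features of the near-identical Serpina1 genes may share transcripts, as may those of the Cyp2a, Cyp2c and Cyp2d, Hamp, Lyz, Klk1 and globin families.

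Complement genes were mostly higher. Of 18 measured, 14 were higher where labelled WAT (median over the list 4.46), among them C8g (7.18 ± 0.44), C9 (7.01), Cfi (6.69) and Mbl2 (6.38 ± 0.33). C8g and C9 belong to the lytic complex, Cfi degrades C3b, and Mbl2 binds mannose on microbes. The 2 that were lower, C1qb (-0.99, limma adjusted p = 0.0276) and C1qc (-0.95, limma adjusted p = 0.0121), encode chains of C1q, a product of macrophages. Their signals were 330, 236 and 431 against 795 and 547, and 274, 181 and 266 against 497 and 446. Both lost the limma call without the first labelled liver array (adjusted p = 0.261 and 0.0924), and C1qb also without the first or the second labelled WAT array (adjusted p = 0.0583 and 0.0891).

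Enzymes of the urea cycle and of amino acid breakdown were nearly all higher. Of 24 genes 23 were higher where labelled WAT, none lower, with a median of 5.54. Cps1, which fixes ammonia in the first step of the urea cycle, had 10044, 9287 and 2302 where labelled WAT and 35.5 and 0.2 where labelled liver (log2 difference 7.50 ± 0.56, limma adjusted p = 8.99e-07). Its level on the third labelled WAT array was the lowest of the 3, and without that array the difference was 8.17. Arg1, which splits arginine in the last step, had 6864, 8084 and 3893 against 37.5 and 0.4 (7.47 ± 0.52). Ass1, for the middle step, had 18180, 13345 and 15688 against 130 and 81.9 (7.02 ± 0.27). Nags, which makes the activator of Cps1, was the only member that did not pass (1.12), and it passed without the third labelled WAT array (1.53, limma adjusted p = 0.00393).

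All 17 genes of bile acid synthesis and transport were higher where labelled WAT (median 5.74). Cyp7a1, the rate-limiting enzyme of bile acid synthesis, had 2514, 3926 and 2761 against 23.6 and -9.5 (6.79 ± 0.34, limma adjusted p = 3.43e-08). Cyp8b1, which makes cholic acid, had 5691, 7036 and 8420 against 45.3 and 9.9 (7.42 ± 0.42). The transporters moved with the enzymes. Slc10a1, which takes bile acids up from blood, was higher by 7.46 ± 0.53, and Abcb11, which pumps them into bile, had 292, 416 and 276 against 0.6 and -0.9 and was at least 13.5-fold higher.

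Of 26 cytochromes P450 of families 1 to 4, 23 were higher and 1 lower (median 5.62). Cyp2a5, a coumarin hydroxylase, had 7878, 10788 and 4513 against 25.7 and 2.9 (7.89 ± 0.38). Cyp2e1, which oxidises ethanol, did not pass (1.22 ± 0.50, limma adjusted p = 0.129), since the arrays labelled liver gave 9599 and 5842 beside 21702, 15562 and 15868. Cyp1b1, a form known from tissues other than liver, was the one that was lower, with -3.7, -4.1 and 1.0 against 99.2 and 88.5 (at least 3.54-fold). A second Cyp1b1 feature passed the other way.

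Genes of glucose output and hepatocyte identity were mostly higher. Of 14 genes of gluconeogenesis, glycogen and fructose metabolism 10 were higher and none lower (median 2.83). G6pc, the phosphatase that releases glucose, had 1852, 2509 and 2036 against 19.9 and 11.9 (6.06 ± 0.37), and Fbp1, the step before it, 5.66 ± 0.24. Pck1, which both hepatocytes and adipocytes use to make new glucose or glycerol, was 1.07 ± 0.32 higher (limma adjusted p = 0.0341), a call lost without any single array except the third labelled WAT array. Pygl, the liver type glycogen phosphorylase, was alike within 2-fold (0.53), and passed as higher without the third labelled WAT array (0.74, limma adjusted p = 0.0188). Of 11 genes of ketogenesis and peroxisomal oxidation 10 were higher (median 2.06), led by the urate oxidase Uox at 7.55 ± 0.37.

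Among 18 hepatocyte transcription factors and nuclear receptors 14 were higher and none lower (median 2.85). Hnf4a, a master regulator of the hepatocyte programme, had 1598, 1508 and 1652 against 12.4 and 7.2 (5.90 ± 0.34, limma adjusted p = 8.52e-08). Foxa3, which opens chromatin at liver genes, had 2468, 2021 and 2998 against 19.1 and 0.2 (6.50 ± 0.37). Cebpa, which serves both hepatocytes and adipocytes, was alike, with 4088, 2673 and 3221 against 3609 and 5154 (-0.39, interval -0.99 to 0.21).

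**Figure D3:**
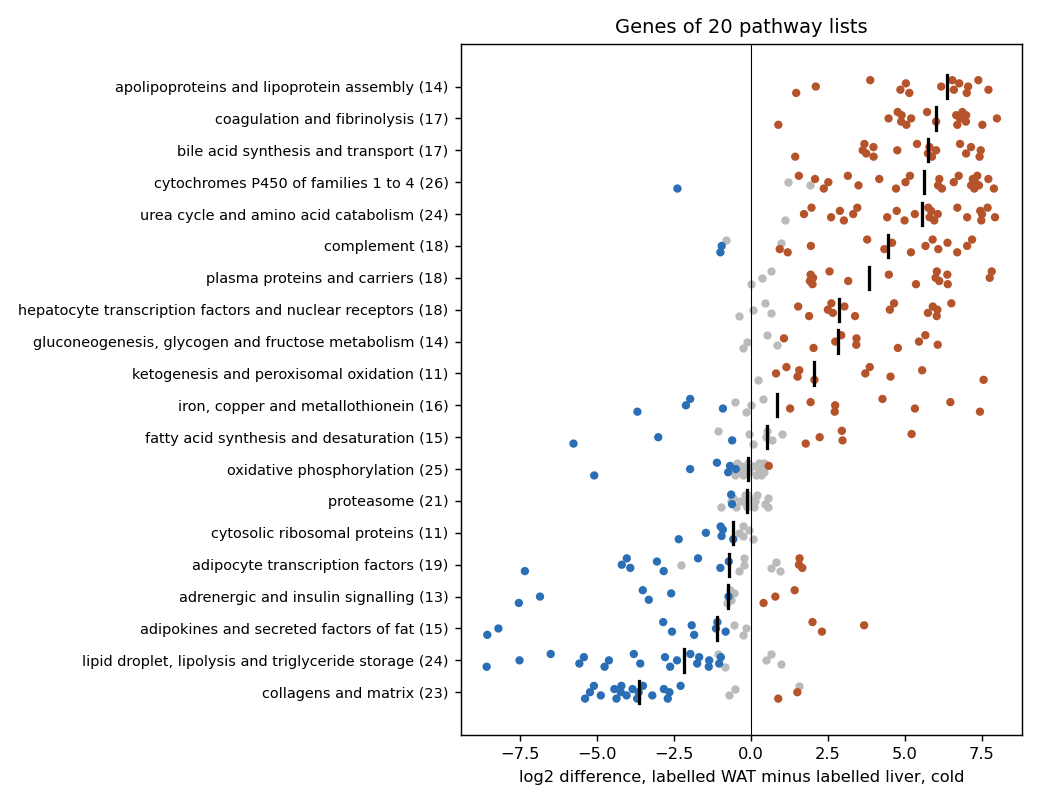
Log2 difference (labelled WAT minus labelled liver, cold, horizontal axis) of each gene of 20 pathway lists, with the number of genes measured in parentheses and a black bar at each list's median. Coloured points passed limma and grey points did not, and the medians run from 6.35 for apolipoproteins to -3.64 for collagens and matrix.

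Genes of fat storage lay on the other side. Of 24 genes of lipid droplets, lipolysis and triglyceride storage 19 were lower where labelled WAT and none higher (median -2.18). Lpl, the lipase that takes triglyceride from blood, had 96.0, 102 and 107 against 8147 and 14403 (-6.50 ± 0.34, 90.4-fold, limma adjusted p = 4.22e-08). Plin1, the perilipin of white adipocytes, was undetected where labelled WAT and at least 18.4-fold lower. Pnpla2, the lipase that starts the breakdown of stored triglyceride, had 752, 686 and 789 against 9434 and 12924 (-3.80 ± 0.12), and Lipe, which cuts the second fatty acid, was 12.1-fold lower. Dgat2, which makes triglyceride in both tissues, was lower by 1.37 on the log2 scale, and Fitm1 was the most positive member at 0.98 (limma adjusted p = 0.0976).

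Secreted factors of fat were split. Of 15 measured, 9 were lower and 3 higher (median -1.09), where 24.1% of all members were lower and 17.3% higher. Retn, which encodes resistin, was at least 5.40-fold lower. The 3 that were higher, Agt (3.67 ± 0.47), Igf1 (2.30 ± 0.33) and Rbp4 (2.00 ± 0.36), encode angiotensinogen, the growth factor IGF-1 and the plasma carrier of retinol, which hepatocytes are known to secrete as well. Igf1 had 4611, 3885 and 3789 against 977 and 673, and Agt 1015, 544 and 928 against 112 and 16.4. Agt moved from 3.67 to 4.67 or 2.68 without the first or the second labelled liver array, and Rbp4 from 2.00 to 2.73 or 1.26, without losing the call.

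Of 19 adipocyte transcription factors 9 were lower and 3 higher (median -0.72), where 24.1% of all members were lower and 17.3% higher. Pparg, the master regulator of adipocytes, had 153, 107 and 31.6 against 2488 and 1298 (-4.19 ± 0.47, limma adjusted p = 2.89e-05). Ebf2, a factor of brown and beige precursors, was at least 5.32-fold lower. Hoxc9, which marks fat of the posterior body, had -1.9, -0.3 and 1.4 against 286 and 331 and was undetected in cold BAT (mean -2.8). Klf15, a factor that also drives amino acid breakdown in liver, was higher by 1.58 ± 0.25, as were Cebpb (1.56) and Nr2f2 (1.67). Among 13 genes of adrenergic and insulin signalling 6 were lower and 3 higher (median -0.73), beside the same shares over all members. Cav1, the coat protein of caveolae, had 9.8, 25.0 and 28.1 against 7699 and 6149. Prkar2b, the regulatory subunit of protein kinase A in fat, had 3.3, 11.8 and 10.7 against 2028 and 4411, at least 97.3-fold. Gcgr, the glucagon receptor, was detected where labelled WAT alone (at least 2.49-fold).

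Extracellular matrix genes gave the lowest median of any pathway list. Of 23 collagen and matrix genes 18 were lower where labelled WAT and 2 higher (median -3.64). Col6a1, a collagen of the sheath around adipocytes, had 70.6, 41.6 and 37.6 against 4191 and 1672 (-5.38 ± 0.54), and Col4a2, of basement membranes, 201, 219 and 201 against 12594 and 5679 (-5.23 ± 0.37). Mmp2, which digests them, was lower by 5.10 on the log2 scale. Col18a1, a basement membrane collagen that liver makes in quantity, was higher (1.51 ± 0.31, limma adjusted p = 0.0035), with 3450, 3064 and 4264 against 1996 and 764. Without both the third labelled WAT and the second labelled liver array it did not pass (0.69, limma adjusted p = 0.0633). Fn1, for fibronectin, did not pass with all arrays (1.57, limma adjusted p = 0.0787) and passed as higher without the third labelled WAT array (2.33, limma adjusted p = 4.31e-04), also with the second labelled liver array left out as well (2.27, limma adjusted p = 0.00415).

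Enzymes that make fatty acids, which both tissues use, showed no common direction. Of 15 genes 5 were higher and 3 lower (median 0.53), where 17.3% of all members were higher and 24.1% lower. Acly, which makes cytosolic acetyl-CoA, had 4268, 3147 and 3984 against 3296 and 4824 and was alike (-0.07, interval -0.84 to 0.70). Fasn, the fatty acid synthase, did not pass (-1.06 ± 0.40, limma adjusted p = 0.0894). The desaturases differed among themselves. Fads2, which acts on polyunsaturated fatty acids, was higher by 5.21 ± 0.41, with 1629, 1061 and 1583 against 20.8 and 24.3. Scd2 was lower by 5.76 on the log2 scale, with 69.0, 101 and 136 against 5856 and 6433. Scd1, of the same family, was bright on every array, with 9416, 11897 and 6746 against 13515 and 13384 (-0.61 ± 0.19, limma adjusted p = 0.038), and its call was lost in all leave-outs but that of the second labelled WAT array.

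Several steps of metabolism are served by a pair of related genes, 1 known from liver and 1 from fat or other tissue. Of 25 such pairs both genes were members in 9. In 6 pairs the liver form was higher and the other lower where labelled WAT. Glucose enters through Slc2a2 in hepatocytes and through the insulin-dependent Slc2a4 in adipocytes, and the signals were 184, 171 and 83.0 against 4.4 and 3.3 for the first and 10.3, 4.2 and -3.6 against 178 and 266 for the second. Glycerol passes through Aqp9 in hepatocytes (4093, 4884 and 4929 against 38.6 and 13.2) and Aqp7 in adipocytes (1.2, 0.3 and -1.0 against 524 and 499.9). Pyruvate kinase is Pklr in liver, at least 8.80-fold higher, and Pkm elsewhere, 12.0-fold lower. Cideb, which loads lipid onto lipoproteins in hepatocytes, was higher by 6.18 ± 0.27, and its relative Cidec was the second lowest gene of all. The fatty acid transport proteins Slc27a5 (6.98 ± 0.40) and Slc27a1 (-2.77 ± 0.25) and the nuclear receptors Ppara (1.89 ± 0.36) and Pparg made up the rest.

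The other 3 pairs did not split. Plin2, the perilipin found on droplets in many cells, was lower (-0.98 ± 0.30, limma adjusted p = 0.0383) together with Plin1, a limma call lost without the second labelled liver array (-0.48, adjusted p = 0.446), the third labelled WAT array (-0.75, adjusted p = 0.116) or the first (-1.06, adjusted p = 0.0545). Scd1 and Scd2 were both lower, as above. Aqp8, a channel of hepatocytes, was at least 20.01-fold higher, and Aqp1, a channel of endothelium, did not pass (-0.91 ± 0.33, limma adjusted p = 0.0816). Where only the form of other tissues was a member, Aldoa of glycolysis (-3.58 ± 0.24), the glycogen synthase Gys1 (-2.58 ± 0.17) and Lpl were lower. Cpt1b was lower too (-2.17, limma adjusted p = 0.0273), but was not called lower without the second labelled liver array. Fabp4 (-0.35, from signals near background), Irs1 (-0.66) and Car3 (-0.85) did not pass. Where only the form listed for liver was a member, Arg1, Mat1a and Rbp4 were higher, and Pygl (0.53) and Pde3a (-0.22) did not pass. Ldha, a lactate dehydrogenase, was lower (-0.70, limma adjusted p = 0.0453).

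Genes of metal handling were split. Of 16 genes of iron, copper and metallothionein 8 were higher and 4 lower (median 0.84). Hamp and Hamp2, which encode the iron hormone hepcidin and its near copy, were higher by 6.47 ± 0.43 and 7.43 ± 0.59, and Tfr2, the iron sensor of hepatocytes, by 5.32 ± 0.28. Heph, which encodes an iron oxidase of other tissues, was at least 10.2-fold lower. Cp, for ceruloplasmin, was lower by 2.11 on the log2 scale through its brightest feature, while its second feature passed in the other direction. Mt1, a metal binding protein, was lower (-1.97 ± 0.39), with 1569, 1064 and 2854 against 10269 and 4599.

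Among genes of machinery common to all cells, those of oxidative phosphorylation were mostly alike. Of 25 genes of oxidative phosphorylation 21 were alike within 2-fold, with 1 higher and 6 lower (median -0.09). The lowest were Cox8b (-5.09 ± 1.05) and Cox7a1 (-1.97 ± 0.58), subunits of cytochrome c oxidase known from heart, muscle and brown fat. Without the second labelled liver array neither passed limma (Cox8b -3.33, adjusted p = 0.064; Cox7a1 -0.90, adjusted p = 0.404), and Cox7a1 did not pass without the second or the third labelled WAT array either (adjusted p = 0.0806 and 0.0646). Atp5a1 was the one that was higher (0.58 ± 0.16, limma adjusted p = 0.0191), within 2-fold, a call kept only when the first labelled WAT array was the one left out (adjusted p of 0.0512 to 0.126 in the other cases). Of 21 proteasome genes 2 were lower and none higher (median -0.12). Of 11 cytosolic ribosomal protein genes (of 30 listed) 6 were lower (median -0.57), Rps19 the most (-2.34 ± 0.22, from signals of 21.3, 24.9 and 17.4 against 197 and 147). Fewer of the 11 passed without the second labelled liver array. The median was -0.42 without it and -0.73 without the first. The brightest genes that were alike were Rpl41, Dbi, Hbb-bt, Eef1a1, Gpx1, Atp5b, Hba-a1, Rps29, Cox4i1 and Cox7c. Of these, Eef1a1 passed limma as higher without the second labelled liver array (0.81, adjusted p = 0.0145), Rps29 as lower without the first (-0.62, adjusted p = 0.00895) and Cox4i1 as lower without the third labelled WAT array (-0.60, adjusted p = 0.00841). Gpx1, which removes peroxide, had 13703, 14772 and 14364 against 13943 and 10353 (0.19, interval -0.14 to 0.51). Dbi, which carries acyl-CoA, had 17008, 11690 and 16656 against 18265 and 17736 (-0.35, interval -0.72 to 0.02). Ces1d and Car3, known to be abundant in both liver and fat, did not pass (0.48 and -0.85), though Car3 passed as lower without the third labelled WAT array (-1.14, limma adjusted p = 0.0469). Ces1d was alike within 2-fold, with 10398, 12096 and 9240 against 8113 and 7416.

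Markers of other cells also set the groups apart. Of 13 endothelial genes 10 were lower where labelled WAT and 1 higher (median -1.54), with Pecam1 at 176, 172 and 229 against 692 and 826. Of 9 markers of liver sinusoid and Kupffer cells 5 were higher and 1 lower (median 2.58). Clec4g and Stab2, of the sinusoid, were higher by 5.51 ± 0.32 and 3.55 ± 0.43, and Clec4f, of Kupffer cells, had 567, 372 and 352 against -0.5 and 0.2. Lyve1, which also marks lymphatic vessels, was the one that was lower (-2.81 ± 0.38). Of 12 macrophage genes 7 were lower (median -0.97), and of 12 genes of fibroblasts and preadipocytes 10 were lower (median -2.93), with Thy1 at 12.0, 4.8 and 28.4 against 368 and 1111. In the list of mammary and other epithelium, Krt8 (5.12 ± 0.36) and Krt18 (4.16 ± 0.31), keratins that hepatocytes carry too, were higher, while Krt7, of duct cells, did not pass (-0.45) and took either sign without 1 labelled liver array (0.92 without the first, limma adjusted p = 0.0278, and -1.82 without the second, limma adjusted p = 3.43e-04). Of 4 erythrocyte genes Alas2, for heme synthesis, was higher (3.29 ± 0.43), Hba-a1 was alike within 2-fold (-0.06) and Hbb-b2 did not pass (-0.12).

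**Figure D4:**
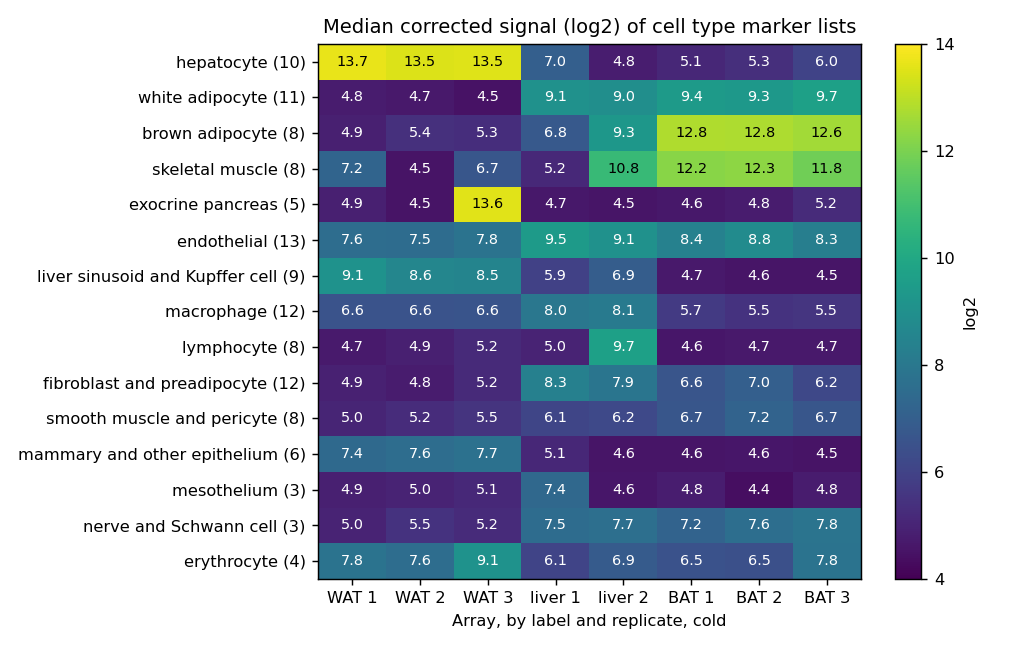
Median corrected signal (log2, colour and number) of 15 lists of cell type markers on each array of the cold mice, with the number of genes measured in parentheses. The hepatocyte row is at 13.5 to 13.7 where labelled WAT, pancreas stands out on WAT 3, and muscle and lymphocyte genes on liver 2. Muscle genes are also high on the BAT arrays, and on WAT 1 and WAT 3 lie above liver 1.

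The pancreas genes on the third labelled WAT array gave the widest ranges within that label. The 10 widest genes were Ctrb1, Cpa1, Cela2a, Ctrl, Klk1, Dmbt1, Klk1b26, Ang, Cyp2a4 and Mid1ip1. Ctrb1, which encodes a chymotrypsinogen, had 6.1, 3.9 and 18318, Cpa1, a carboxypeptidase, 5.5, 1.4 and 7150, and Cela2a, an elastase, 44.2, 37.9 and 18135. None of these 10 passed limma with all arrays, and without the second labelled WAT array Dmbt1 did (3.56, adjusted p = 0.044). Cela1, another elastase, did pass (5.90 ± 0.85, limma adjusted p = 0.000251). It still did without the third labelled WAT array (4.68, limma adjusted p = 3.77e-06), with 798 and 1132 on the first and second. Cyp2a4 differed in another way, with 2.2, 566 and 25.9. Leaving out the third array gave 3157 members higher and 4038 lower, against 3014 and 4184.

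The 2 labelled liver arrays differed most in Pvalb, Tnnt3, Tnni2, Tnnc2, Atp2a1, Csrp1, Fcmr, Rsl1d1, Cd3d and Cd3e. Pvalb, a calcium buffer of fast muscle, had 35.1 on the first and 4720 on the second, and Tnni2, a troponin of fast muscle, 39.5 and 3426. Cd3d, of the T cell receptor complex, had 16.5 and 905, and Cd79b, of the B cell receptor, 46.4 and 1165. Pvalb passed limma as lower without the first array (-6.29, adjusted p = 9.77e-04), as did Cd3d (-4.94, adjusted p = 2.45e-06), while Cd79b passed with all arrays (-3.11, adjusted p = 0.0186) and not without the second (-0.98, adjusted p = 0.0897). Among members, 63 were over 8-fold higher on the second array than on the first, and 12 over 8-fold lower, among them Upk3b of mesothelium (434 and -11.3). Of 8 lymphocyte genes 2 were lower where labelled WAT, 8 without the first labelled liver array and none without the second. Of 8 muscle genes none passed with all arrays (median -1.78), 7 were lower without the first labelled liver array (median -4.63) and none passed without the second (median 0.54). BAT of the cold mice carried muscle genes too, with medians of 12.24, 12.30 and 11.84.

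Brown fat genes varied along with them. Ucp1, the uncoupling protein of brown and beige fat, had -4.8, 309 and 4.9 where labelled WAT, 1774 and 12928 where labelled liver, and a mean of 13665 on the cold BAT arrays. It was lower where labelled WAT (-6.47 ± 1.39, limma adjusted p = 0.0048), and no longer passed without the second labelled liver array (-5.06, limma adjusted p = 0.0718). Cidea, a CIDE protein of brown fat, had 233 and 4916 on the arrays labelled liver, and Cox8b 697 and 8456. Of 8 brown adipocyte markers 6 were lower (median -2.07), and 1 lower and 1 higher without the second labelled liver array. The list's median on that array was 9.31, against 6.78 on the first and 12.61 to 12.79 on cold BAT. The part of muscle, lymphocyte or brown fat RNA in the other results was not tested. The 11 white adipocyte markers had medians of 9.07 and 8.96 on the 2 arrays, and 9 were lower where labelled WAT with either array left out.

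The same contrast at room temperature was set against that in the cold. It used other animals, and the difference of the differences was tested in the same fit. It passed for 580 of the members (3.33%, against 1.47% of all tested features), with the difference higher in the cold for 483 and lower for 97. The 5 named genes with the largest shift upward were Fga, Ahsg, Hpd, Hpx and Apoc3. At room temperature Hpx had 16938, 17096 and 14912 where labelled WAT, against 13674 and 6795 where labelled liver, so that the difference was 0.70 there and 7.75 in the cold (shift 7.05 ± 0.76, limma adjusted p = 0.000197). Fga had 12416 and 8125 on the room temperature arrays labelled liver, against 118 and 12.6 in the cold. Those room temperature arrays carried adipocyte genes at the same time, with Adipoq at 8151 and 10227 and Lep at 4056 and 10789. The Adipoq difference was -7.82 there, against -8.20 in the cold (shift -0.37 ± 0.58, limma adjusted p = 0.943). Over the 10 hepatocyte markers the median difference was 6.08 in the cold, against 0.63 in the warm, with 7 shifts passing, and over the 11 white adipocyte markers -4.19 against -3.29, with 1 shift passing.

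The 5 genes with the largest shift downward were Lyz1, Sparc, Egr1, Kif23 and St3gal6. Lyz1, for lysozyme, had 221 and 381 on the cold arrays labelled liver, against 41.5 and 35.3 for the warm ones, and was undetected on the cold arrays labelled WAT (shift -2.39 ± 0.36, limma adjusted p = 0.0031). Sparc, a matrix protein, had 789 and 322 there in the cold, against 45.3 and 113 in the warm (shift -2.37 ± 0.48, limma adjusted p = 0.0262). Egr1, an immediate early gene, moved on the other side, with 32.1, 89.7 and 44.1 where labelled WAT in the cold, against 243, 249 and 314 in the warm. Its levels where labelled liver were 239 and 233 in the cold, against 160 and 249. Kif23, a motor of cell division, had 61.5 and 116 where labelled liver in the cold, against 13.1 and 2.0 in the warm.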

How the data were processed

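RNA of 16 samples had been hybridised to Illumina MouseWG-6 arrays. The deposited intensity values were background-subtracted and not normalized, and the deposited detection score states how far a signal lay above the negative controls. How the background was subtracted is not given in the sources used here. The value table, which the authors deposited on a log2 scale, was used as an alternative only.

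In R 4.3.3 with limma 3.58.1, signals were corrected with normexp (neqc, offset 16, negative controls inferred from the detection scores), quantile normalized over 16 arrays and put on the log2 scale. The offset understates the folds of dim genes. Features with a score of at least 0.6 on 2 or more arrays were tested. A fit of 6 group means over all 16 arrays gave the differences, and p-values were adjusted by Benjamini-Hochberg over 39730 features (threshold 0.05). In a test on simulated data of 39730 features and this comparison, 1, 17, 47 and 50 of 50 changed features were recovered at log2 differences of 0.5, 1, 2 and 4, and 9 of 124 calls were false. There all groups shared 1 mean except in these few features, and the noise was independent and normal. In the data 19.1% of tested features were called. The simulated shares therefore check the code and do not give the power or the false share of the real comparison. The number of arrays limits the precision. Printed signals are the deposited ones.

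Named genes were, among those with non-overlapping arrays that passed, the 15 highest and the 15 lowest, then the 10 with the widest range within each label, the 10 brightest alike genes, the 5 with the largest shift with temperature in each direction, and examples of the lists. The members and lists were chosen with earlier results of these data known. Alternatives covered background correction, scaling, filters, the samples fitted, the replicate block, the methods' t-test and each array left out.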

Additional observations from a re-analysis of the deposited data

Results flagged for a closer look

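The difference between the arrays labelled WAT and those labelled liver in the cold was not that at room temperature for 580 members by limma, with 483 shifts upward and 97 downward. The test was that of the interaction itself. Among named genes the shift (log2 difference in the cold minus that at room temperature) was 7.29 for Fga, 7.26 for Ahsg, 7.12 for Hpd, 7.05 for Hpx and 7.00 for Apoc3. It was -1.92 for St3gal6, -1.98 for Kif23, -2.30 for Egr1, -2.37 for Sparc and -2.39 for Lyz1. The room temperature arrays labelled liver carried hepatocyte and adipocyte genes together, with median log2 signals of 13.67 and 12.71 over 10 hepatocyte markers and of 8.45 and 9.08 over 11 white adipocyte markers. The part of this mixture in the shifts was not tested.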

How the results depend on the processing

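With all arrays 7198 members were called, 3014 higher and 4184 lower. Scaling to the 75th percentile gave 8108 (3815 and 4293), so that 47.1% of the calls were higher, against 41.9%. Quantile normalization over the 5 arrays gave 4334 (1913 and 2421), a fit of the 5 arrays 4301 (1895 and 2406), the methods' t-test with a 2-fold minimum 3698 (1680 and 2018), and the same test after Benjamini-Hochberg 1288 (610 and 678). Members alike within 2-fold numbered 2661 with no background correction, 2666 in the authors' value table and 4866 with the methods' t-test. Leaving out 1 array gave 5545 to 7195 calls (2252 to 3157 higher, 3293 to 4038 lower), 6942 to 8382 alike, and 560 to 917 shifts with temperature, the 917 without the first labelled liver array. The cause of these changes was not tested.

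With the replicate number as a block, 6935 members were called (2964 higher and 3971 lower). Deviations of same-numbered arrays from their group mean correlated at -0.06 and -0.15. With 2 labelled liver arrays the deviations of 1 mirror those of the other, so these values could neither show nor exclude pairing. The labels do not say that equal numbers mark the same animal, and the numbers were not taken as pairing. By the methods every animal gave all the tissues, so arrays may share animals, and the main fit treated them as independent. The block ended the call of Pck1 (1.02, limma adjusted p = 0.0561). Leaving out the third labelled WAT and the second labelled liver array together, an alternative chosen after seeing the data, gave 5933 calls. For the shifts, quantile normalization over the 5 arrays, the fits of the 5 or the 8 cold arrays and the methods' t-test could give no value. The shifts were not recomputed with the other filters or with the authors' value table. Over 168 genes and 20 alternatives no called gene changed direction, and 56 of 119 called genes lost the call under at least 1 of them. Of 49 genes not called, 25 took the other sign under at least 1.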
